A study of Mus musculus with 6 samples.

Results

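Hlf encodes hepatic leukemia factor, a transcription factor of the PAR bZIP family. Its RNA was lower in regulatory T cells (Treg) that had been transferred together with HP1α KO conventional T cells (Tconv) than in Treg transferred with wild-type (WT) Tconv. The set described here holds Hlf and 9 relatives in the circadian clock network: the PAR bZIP genes Dbp and Tef, their antagonist Nfil3, the period and cryptochrome genes Per1, Per2, Per3 and Cry1, and the REV-ERB genes Nr1d1 and Nr1d2. Members were matched by gene symbol, and all 10 were found among the 29199 genes of the count table. The set was chosen by the difference of Hlf in the very contrast described here, so the values of Hlf are a description without a test. All 10 members were among the 18321 genes that passed the filter on low counts.

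Host mice were lethally irradiated C57BL/6 J animals or CD45.1+ B6 animals, given a mix of C57BL/6 J marrow and semi-allogeneic B6D2F1 marrow, ex vivo expanded WT Treg from B6 Foxp3-Thy1.1 mice, and naive CD4+ Tconv. The Tconv came either from WT mice or from mice in which a floxed Cbx5 gene, which encodes the heterochromatin protein HP1α, had been excised by CMV-cre, and these donors were littermates on a mixed genetic background. CMV-cre acts throughout the body, so the excision in the Tconv donors was not limited to T cells, whereas the Treg were WT in both groups. Mice were 6 to 12 weeks old, and the Treg were sorted from the spleen 3 weeks after the graft as CD4+ Thy1.1+ cells that carried CD45.2 and H-2Kb and lacked CD45.1 and H-2Kd. There were 3 libraries of Treg with WT Tconv (WT replicates 1 to 3) and 3 of Treg with HP1α KO Tconv (KO replicates 1 to 3), named here by the Tconv since all Treg were WT. The hour of the day at which spleens were taken is not given in the sources used here, nor whether each library was 1 animal, so the p-values measure the spread between these libraries.

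PAR bZIP proteins bind D-box elements as dimers and activate transcription, and NFIL3 binds the same elements and represses it. In the core of the clock, CLOCK and BMAL1 bind E-boxes and drive Per, Cry, Nr1d and PAR bZIP genes. The PER and CRY proteins then inhibit CLOCK and BMAL1, and REV-ERB proteins, encoded by Nr1d1 and Nr1d2, compete with ROR activators for ROR elements in Bmal1 and Nfil3. Transcripts of the E-box driven arm and of Bmal1 therefore tend to peak at opposite times of day in many tissues. Several of these factors also act in T cells apart from timekeeping. NFIL3 responds to T cell and cytokine signals, RORα acts in T helper cells, and HLF is best known in blood as a factor of hematopoietic stem cells.

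The promoters of the members that carry the results below are shown for reference, as the stretch before the annotated start in RefSeq (GRCm38.p6). A RefSeq promoter of 300 bases, from 250 before to 50 after the start, was found for 9 of the 10 members. Capitals mark exact matches, on either strand, to the E-box CACGTG, the D-box TTATGTAA or TTACGTAA, the ROR element TAGGTCA, whose reverse complement reads TGACCTA, or the cAMP response element TGACGTCA.
Hlf, chr11:90390918-90391167, minus strand: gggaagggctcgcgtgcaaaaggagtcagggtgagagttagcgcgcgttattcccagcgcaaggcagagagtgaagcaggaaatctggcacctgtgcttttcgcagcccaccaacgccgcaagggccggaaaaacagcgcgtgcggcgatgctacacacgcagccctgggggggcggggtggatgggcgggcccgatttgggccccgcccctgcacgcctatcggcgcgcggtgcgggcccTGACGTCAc
Dbp, chr7:45704997-45705246, plus strand: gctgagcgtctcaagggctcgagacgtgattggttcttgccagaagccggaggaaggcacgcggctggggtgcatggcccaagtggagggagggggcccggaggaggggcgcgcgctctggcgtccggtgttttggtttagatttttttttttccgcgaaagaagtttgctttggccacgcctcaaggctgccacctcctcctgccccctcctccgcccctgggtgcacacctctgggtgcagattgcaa
Nfil3, chr13:52981040-52981289, minus strand: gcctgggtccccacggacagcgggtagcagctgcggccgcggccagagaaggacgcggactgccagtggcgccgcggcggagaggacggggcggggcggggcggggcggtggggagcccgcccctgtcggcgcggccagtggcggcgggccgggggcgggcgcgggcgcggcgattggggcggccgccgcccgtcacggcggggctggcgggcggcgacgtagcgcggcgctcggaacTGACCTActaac
Per1, chr11:69098699-69098948, plus strand: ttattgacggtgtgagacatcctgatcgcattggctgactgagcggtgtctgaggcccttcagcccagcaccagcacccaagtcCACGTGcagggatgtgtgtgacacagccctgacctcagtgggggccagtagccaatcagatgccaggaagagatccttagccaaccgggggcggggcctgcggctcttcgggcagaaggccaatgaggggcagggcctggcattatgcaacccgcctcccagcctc
Per3, chr4:151044666-151044915, minus strand: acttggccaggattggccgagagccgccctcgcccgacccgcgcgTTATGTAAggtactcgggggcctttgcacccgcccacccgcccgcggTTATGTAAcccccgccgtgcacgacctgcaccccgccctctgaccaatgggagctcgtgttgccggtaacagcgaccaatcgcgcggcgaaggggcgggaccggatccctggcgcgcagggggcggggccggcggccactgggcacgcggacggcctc
Nr1d2, chr14:18239107-18239356, minus strand: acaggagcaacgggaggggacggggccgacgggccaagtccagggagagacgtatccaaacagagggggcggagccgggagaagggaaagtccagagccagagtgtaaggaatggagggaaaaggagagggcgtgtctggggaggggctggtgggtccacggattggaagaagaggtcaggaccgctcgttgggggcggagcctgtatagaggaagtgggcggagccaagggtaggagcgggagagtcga

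The E-box letters were present in 7.15% of the 32851 mouse promoters searched, and in 3 members (Per1, Tef and Cry1). Members were counted by gene, with a match in any window, whereas the shares are by promoter. Per1 had a further window, at chr11:69099902-69100201 and not shown above, without E-box letters. The D-box letters TTATGTAA were present in 0.938% of all promoters and TTACGTAA in 0.119%, and Per3 was the 1 member with a D-box, with matches at -205 and -158 from the start. The ROR element letters were present in 2.61% of promoters and, among the members, in Nfil3, at -12 from its start. The cAMP response element was present in 1.79% of promoters and in Hlf, at -9 from its start. Dbp, Nr1d1 and Nr1d2 had none of these letters in their windows. Elements of clock genes can also lie outside such windows, which were not searched.

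Sequencing was deep, with 87421755 to 119078882 estimated counts per library and 22573 to 24626 genes with a count. Treg markers were abundant in every library, with Foxp3 at 154 to 252 CPM (counts scaled to the library total by TMM factors), and the 8 markers summed to 4680 to 5370 CPM with WT Tconv and 4540 to 4820 CPM with HP1α KO Tconv. One library stood apart in markers of other cell types. WT replicate 3 held 6290 CPM of erythroid markers against 395 to 730 CPM in the other libraries, 1870 CPM of neutrophil markers against 42.3 to 225 CPM, and 188 CPM of macrophage and monocyte markers against 16.4 to 50.5 CPM. Each list held 8 genes, and no gene of these lists was at 0 in all libraries. The 6 B cell markers summed to 615 to 647 CPM with WT Tconv and 586 to 699 CPM with HP1α KO Tconv. The part of these cells in the results was not tested, and the main values are given below also without WT replicate 3. KO replicate 2 also stood apart, in its counts over all genes, and values without it are given with the alternative settings below.

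Hlf (ENSMUSG00000003949; GRCm39 chr11:90227221-90281761, minus strand) received 388, 444 and 604 counts with WT Tconv and 209, 202 and 183 counts with HP1α KO Tconv. Scaled to the library, this was 4.04, 4.60 and 5.16 CPM against 2.30, 2.02 and 2.07 CPM. All 3 libraries with HP1α KO Tconv lay below all 3 with WT Tconv, and the lowest WT value was well above the highest KO value. The mean of 4.60 CPM ± 0.561 (SD, n = 3) stood against 2.13 CPM ± 0.147 (SD, n = 3), a 2.16-fold lower level, with a log2 fold change of -1.11 by edgeR. Of the 18321 genes tested, 536 had a log2 fold change at or below that of Hlf, and the median absolute log2 fold change was 0.169. Without WT replicate 3 the log2 fold change of Hlf was -1.02, and it stayed between -1.18 and -1.02 over all 14 alternative settings. In bulk RNA, fewer cells of a type and less RNA per cell cannot be told apart, which holds for every gene below.

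Because HLF is known from stem cells, markers of stem and progenitor cells were set beside it. The 8 markers summed to 5.35, 3.40 and 8.95 CPM with WT Tconv and 3.90, 3.37 and 2.11 CPM with HP1α KO Tconv, and 7 of the 8 were under 1 CPM in every library. Kit was the exception, at 4.52, 2.36 and 6.59 CPM against 2.77, 2.76 and 1.30 CPM, and its groups overlapped. Mecom, a defining stem cell gene, was at 0 in 4 libraries and at most at 0.137 CPM. Their part in the level of Hlf was not tested.

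The nearest relatives of Hlf, Dbp and Tef, had other values. Dbp (GRCm39 chr7:45354512-45359627), the PAR bZIP gene with the strongest daily rhythm in many tissues, was at 7.26, 7.15 and 7.64 CPM with WT Tconv and at 9.47, 7.74 and 9.28 CPM with HP1α KO Tconv. All KO values lay above all WT values, by a narrow gap between WT replicate 3 and KO replicate 2. Its log2 fold change was 0.26 (standard error 0.119, 95% interval -0.01 to 0.54), with an unadjusted p of 0.0563 and an adjusted p of 0.361 by the edgeR quasi-likelihood test, and it was 0.29 without WT replicate 3. Dbp shares 15.5% of its exon bases with Sphk2 on the opposite strand, and whether the counting used strand is not given in the sources used here. Tef (GRCm39 chr15:81686622-81711064), the PAR bZIP gene with the highest level per length here, was at 44.5, 43.9 and 40.3 CPM against 38.0, 46.0 and 44.3 CPM. Its groups overlapped, with a log2 fold change of 0.00 (95% interval -0.21 to 0.20), or -0.05 without WT replicate 3.

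**Figure D1:**
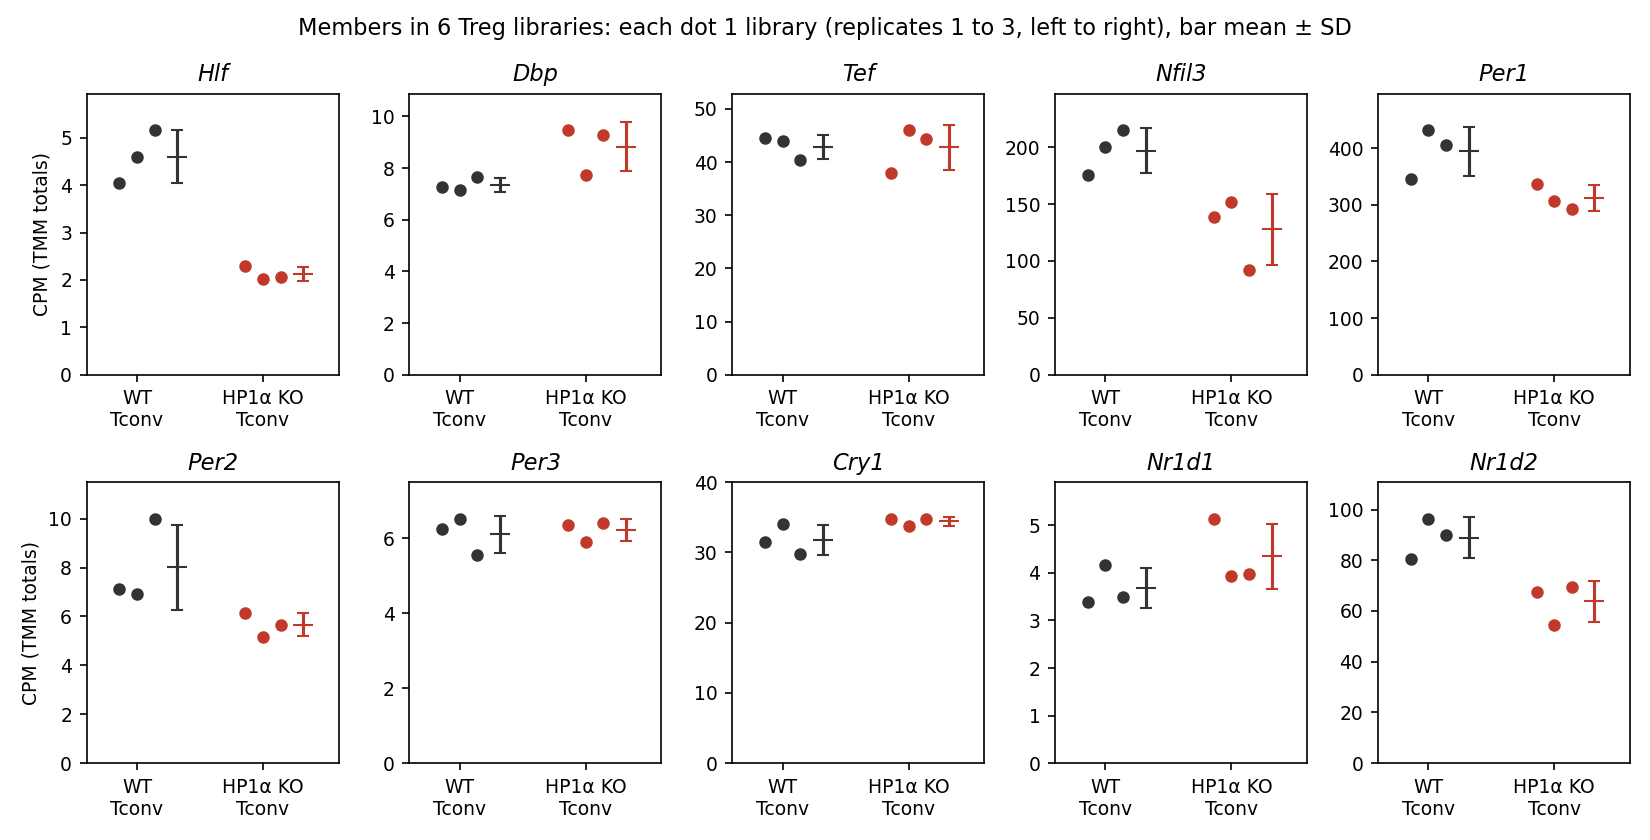
Level of each of the 10 members in the 6 Treg libraries, in CPM scaled by TMM factors (y axis from 0, its range differing by gene) by genotype of the co-transferred Tconv; each dot is 1 library and the bar is the mean ± SD (n = 3). Hlf, Nfil3, Per1, Per2 and Nr1d2 lie lower with HP1α KO Tconv in all 3 libraries, Dbp lies higher, and Tef, Per3, Cry1 and Nr1d1 overlap.

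Ratios taken within a library do not depend on its scaling, and these pairs were picked after the values had been seen. The log2 ratio of Hlf to Dbp counts was -0.85, -0.64 and -0.57 with WT Tconv and -2.04, -1.94 and -2.16 with HP1α KO Tconv, a difference of -1.36. The log2 ratio of Hlf to Tef was -3.46, -3.26 and -2.97 against -4.05, -4.51 and -4.42, a difference of -1.10. Both follow from the choice of Hlf by its low level with HP1α KO Tconv and are a description.

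Nfil3 (GRCm39 chr13:53121245-53137010, minus strand), the D-box repressor that opposes the PAR bZIP activators, also lay lower with HP1α KO Tconv. It was at 176, 200 and 215 CPM with WT Tconv and at 139, 152 and 92.4 CPM with HP1α KO Tconv. The groups did not overlap, and KO replicate 3 was lowest. Its log2 fold change was -0.63 (standard error 0.193, 95% interval -1.10 to -0.16), with an unadjusted p of 0.0169 and an adjusted p of 0.249 by the edgeR quasi-likelihood test and an adjusted p of 0.00801 by DESeq2. It was -0.56 without WT replicate 3 and -0.44 without KO replicate 3. The log2 ratio of Nfil3 to Dbp counts was 4.60, 4.80 and 4.82 with WT Tconv and 3.88, 4.29 and 3.32 with HP1α KO Tconv, a difference of -0.91. This pair too was picked after the values had been seen.

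Of the period genes, whose proteins inhibit CLOCK and BMAL1, Per1 and Per2 lay lower with HP1α KO Tconv and Per3 overlapped. Per1 (GRCm39 chr11:68986035-69002300), which also responds directly to glucocorticoid and cAMP signals, was at 346, 432 and 405 CPM with WT Tconv and at 337, 307 and 292 CPM with HP1α KO Tconv. The groups were separated by a narrow gap between replicate 1 of each. The log2 fold change was -0.34 (standard error 0.0979, 95% interval -0.56 to -0.11), with an unadjusted p of 0.00838 and an adjusted p of 0.224 by edgeR and an adjusted p of 0.0468 by DESeq2, and it was -0.32 without WT replicate 3. Per2 (GRCm39 chr1:91343700-91387069) was at 7.12, 6.90 and 10.0 CPM against 6.13, 5.18 and 5.66 CPM. The highest of these was the WT library that stood apart in erythroid and myeloid markers. Its log2 fold change of -0.50 (95% interval -0.89 to -0.11) had an unadjusted p of 0.0172, an adjusted p of 0.250 by edgeR and an adjusted p of 0.0812 by DESeq2, and without that library it was -0.31, which no longer passed an unadjusted p of 0.05 by edgeR and still did by DESeq2. Per3 (GRCm39 chr4:151081373-151129140), the member with D-box letters in its promoter window shown above, was at 6.24, 6.52 and 5.56 CPM against 6.36, 5.89 and 6.40 CPM. Its groups overlapped, and its log2 fold change was 0.02 (95% interval -0.25 to 0.30), or -0.04 without WT replicate 3. Cry1 (GRCm39 chr10:84967560-85021252), the cryptochrome gene that peaks late in the cycle, was at 31.5, 34.0 and 29.8 CPM against 34.7, 33.7 and 34.8 CPM, with a log2 fold change of 0.12 (95% interval -0.06 to 0.29), or 0.07 without WT replicate 3.

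Of the REV-ERB genes, Nr1d2 lay lower with HP1α KO Tconv and Nr1d1 overlapped, and the difference between them was not tested. Nr1d2 (GRCm39 chr14:4230545-4266624, on the plus strand there and on the minus strand in GRCm38.p6), which encodes REV-ERBβ, was at 80.4, 96.4 and 89.9 CPM with WT Tconv and at 67.6, 54.5 and 69.3 CPM with HP1α KO Tconv. The groups did not overlap, with a log2 fold change of -0.48 (standard error 0.109, 95% interval -0.73 to -0.23). This was the smallest unadjusted p of the 9 members tested, 0.00221, with an adjusted p of 0.209 by edgeR and of 0.00638 by DESeq2, and without WT replicate 3 its log2 fold change was -0.47. Nr1d1 (GRCm39 chr11:98658752-98666188), which encodes REV-ERBα, was low, at 3.38, 4.16 and 3.49 CPM against 5.14, 3.94 and 3.98 CPM. Its groups overlapped, with a log2 fold change of 0.24 (95% interval -0.14 to 0.63), or 0.21 without WT replicate 3. Thra, on the opposite strand, overlaps 52.3% of the exon bases of Nr1d1 and received 4106 counts over all libraries, so the level of Nr1d1 is uncertain. The log2 ratio of Nr1d2 to Nr1d1 was 4.57, 4.53 and 4.69 with WT Tconv and 3.72, 3.79 and 4.12 with HP1α KO Tconv, a difference of -0.72 with no overlap. In the same way the ratio of Per1 to Per3 differed by -0.36 and that of Per2 to Per3 by -0.51, with all 3 KO values below all 3 WT values for each. As these pairs were picked after the values had been seen, the directions of their ratios follow from the choice.

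**Figure D2:**
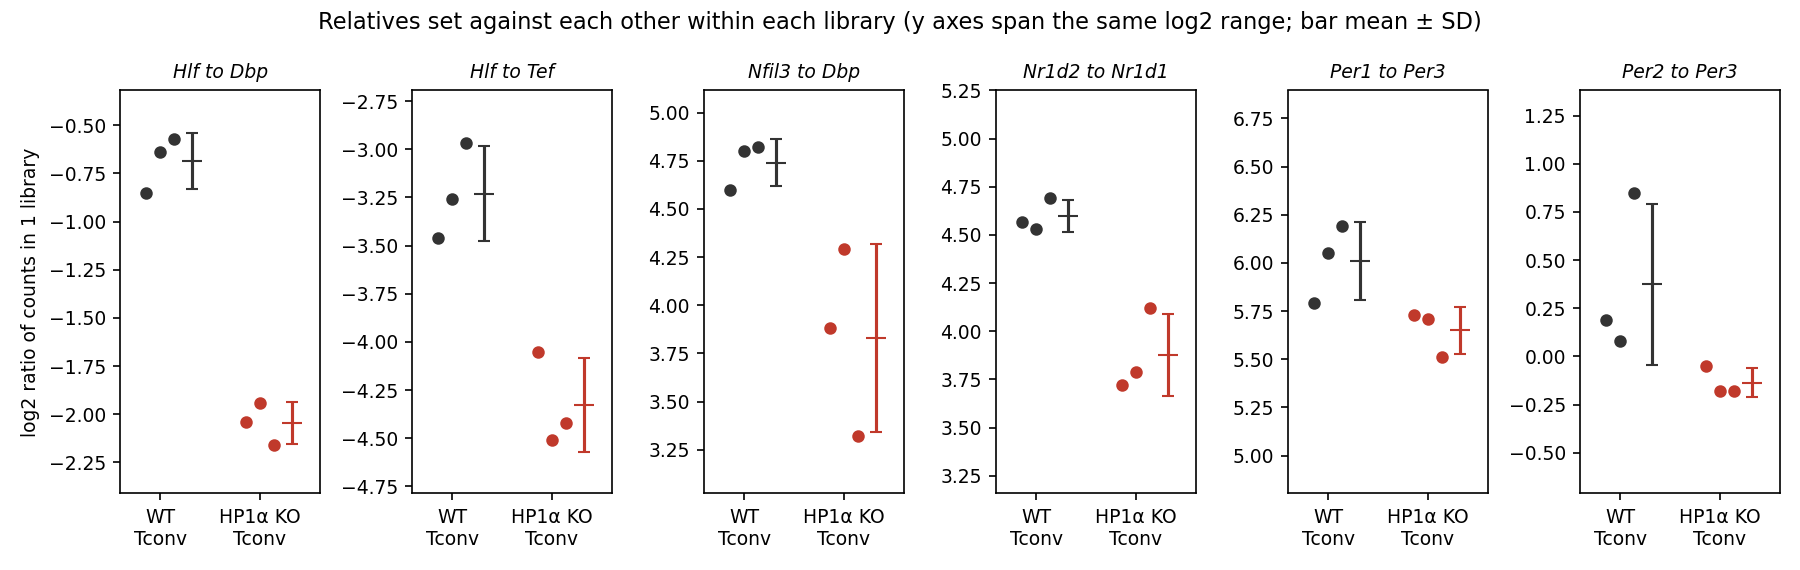
Log2 ratio of the counts of 2 related genes within each library (y axis, with the same span in every panel) by genotype of the co-transferred Tconv; dots are libraries and bars the mean ± SD (n = 3). All 6 ratios are lower in every library with HP1α KO Tconv, with differences from -1.36 for Hlf to Dbp to -0.36 for Per1 to Per3. The pairs were picked after the values had been seen. Each sets a gene that lay lower over one that overlapped or lay higher, so these directions follow from the choice.

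Over the 9 members other than Hlf, 4 had a positive and 5 a negative log2 fold change, with a median of 0.00 and a range of -0.63 to 0.26, Tef at just under 0 counting as negative. Over all 18321 genes tested, 8890 were higher and 9431 lower, with a median of -0.01. No member passed an adjusted p of 0.05 by edgeR, as 0% of all genes did. At an unadjusted p under 0.05 there were 4 members (Nfil3, Per1, Per2 and Nr1d2), all lower, beside 14.5% of all genes (7.52% lower and 6.98% higher). With upper quartile scaling and with total counts, Dbp joined them as higher, beside 13.9% and 15.2% of all genes. The groups did not overlap for 5 of the 9, with 4 lower and Dbp higher, beside 23% of all genes (11.6% lower and 11.5% higher). By DESeq2, the tool named in the methods of the study, 3 members (Nfil3, Per1 and Nr1d2) had an adjusted p under 0.05, beside 4.35% of the 12097 genes to which it gave one (3.03% lower and 1.31% higher). The study also asked for a log2 fold change beyond 1 in size, which these 3 members did not reach (-0.63, -0.34 and -0.48). The DESeq2 calls depended on single libraries, over all genes as well as among the members: 526 genes were called with all libraries. Without WT replicate 2, 0 members passed and 279 genes in all, and without WT replicate 3, 0 members and 181 genes. Without KO replicate 3, 2 members (Nfil3 and Nr1d2) passed and 318 genes, and without KO replicate 2, 4 members, with Dbp joining as higher, and 1413 genes. The same 3 members passed without WT replicate 1 (328 genes) and without KO replicate 1 (681 genes). Where no member passed, without WT replicate 2 and WT replicate 3, the DESeq2 log2 fold changes were -0.62 and -0.56 for Nfil3, -0.42 and -0.47 for Nr1d2, and -0.27 and -0.32 for Per1.

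**Figure D3:**
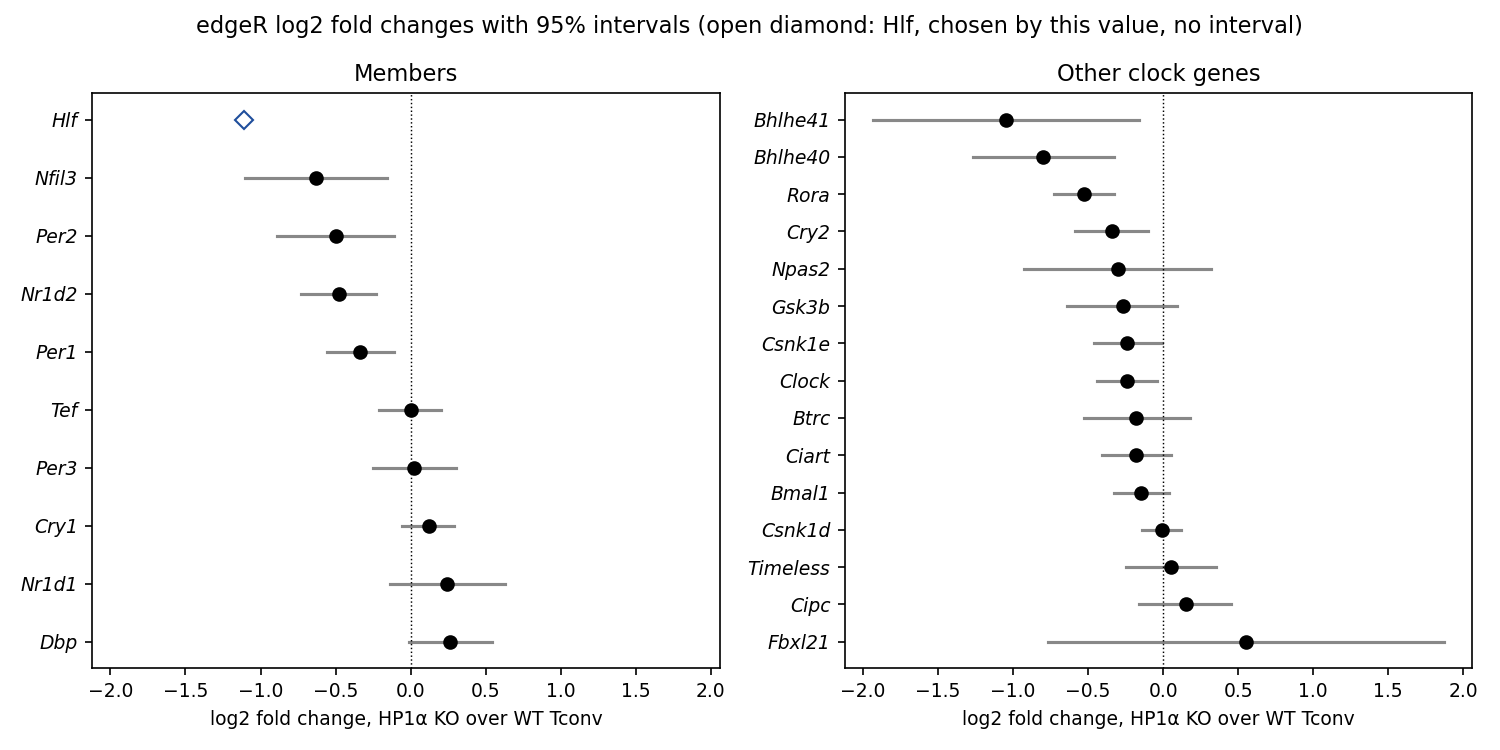
Log2 fold change, HP1α KO over WT Tconv (x axis), by edgeR for the 10 members (left) and other clock genes tested (right); points are estimates, lines 95% intervals, and the open diamond is Hlf, by whose value the set was chosen and which has no interval. Intervals of Nfil3, Per2, Nr1d2 and Per1 lie below 0, and those of Tef, Per3, Cry1, Nr1d1 and Dbp include 0.

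The rest of the clock network was described from a list of 18 other clock genes, of which 17 passed the filter and Rorb did not. Of the 17, 4 were higher and 13 lower, with a median log2 fold change of -0.24, and 7 had an unadjusted p under 0.05, all lower, beside 14.5% of all genes (7.52% lower). The groups did not overlap for 8 of the 17, all lower, beside 23% of all genes (11.6% lower). None of the 17 passed an adjusted p of 0.05 by edgeR, as 0% of all genes did, and 4, among them Rora, Bhlhe40 and Bhlhe41, did by DESeq2, beside 4.35%. Rora, which encodes the ROR activator RORα, was at 401, 380 and 363 CPM with WT Tconv and at 289, 266 and 238 CPM with HP1α KO Tconv. Its log2 fold change was -0.53 (95% interval -0.73 to -0.33), with an adjusted p of 0.209 by edgeR and of 0.00013 by DESeq2. Bhlhe40, an E-box repressor that is also induced by T cell activation, was at 1420, 1410 and 1610 CPM against 1120, 751 and 670 CPM. Its log2 fold change was -0.80, with an adjusted p of 0.210 by edgeR and of 0.000291 by DESeq2. Its paralog Bhlhe41 was low, at 2.89, 3.29 and 4.03 CPM against 2.00, 2.17 and 0.770 CPM, and its log2 fold change of -1.05 had an adjusted p of 0.285 by edgeR and of 0.0407 by DESeq2. Without WT replicate 3 the log2 fold changes were -0.56 for Rora, -0.74 for Bhlhe40 and -0.91 for Bhlhe41 by edgeR, and Rora and Bhlhe40 were the 2 that DESeq2 still called. Leaving out each library in turn, DESeq2 called Rora in every fit, Bhlhe40 in all but that without KO replicate 2, and Bhlhe41 only in that fit.

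The activators at the head of the loop had negative log2 fold changes, and they were not tested against the other clock genes. Bmal1, named Arntl in the table, was at 80.1, 81.5 and 77.9 CPM with WT Tconv and at 74.1, 77.6 and 64.5 CPM with HP1α KO Tconv, with a log2 fold change of -0.15 (95% interval -0.33 to 0.04). Clock, its partner, stood at -0.24 on the same scale (unadjusted p of 0.0245 and adjusted p of 0.277 by edgeR). Npas2, which can stand in for Clock, stood at -0.30 at about 1 CPM. The groups did not overlap for Bmal1 and Clock, and they overlapped for Npas2. Among the other repressors, the log2 fold change of Cry2 was -0.34, with an adjusted p of 0.234 by edgeR. Ciart, which in many tissues oscillates strongly with Dbp, was at 14.2, 16.7 and 16.3 CPM against 14.2, 13.1 and 14.4 CPM, with a log2 fold change of -0.18. Cipc and Timeless had log2 fold changes of 0.15 and 0.05. The kinase genes Csnk1d, Csnk1e and Gsk3b, whose products phosphorylate clock proteins, had log2 fold changes of -0.01, -0.24 and -0.27, Btrc had one of -0.18 and Fbxl21 one of 0.55 at under 1 CPM.

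The E-box driven genes and the genes held down by REV-ERB through ROR elements were also set side by side. The part of clock phase in these differences was not tested. The 9 E-box driven genes without Hlf had a median log2 fold change of -0.18, with 3 higher and 6 lower. The 6 genes of the ROR element arm had a median of -0.19, with 2 higher and 4 lower. Within the E-box arm, Dbp and Nr1d1 had positive log2 fold changes and Per1, Per2 and Nr1d2 negative ones. Within the ROR element arm, Nfil3 had a negative log2 fold change and Cry1 a positive one. Cry1 was listed in this arm, although its promoter window held E-box letters and no ROR element letters.

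**Figure D4:**
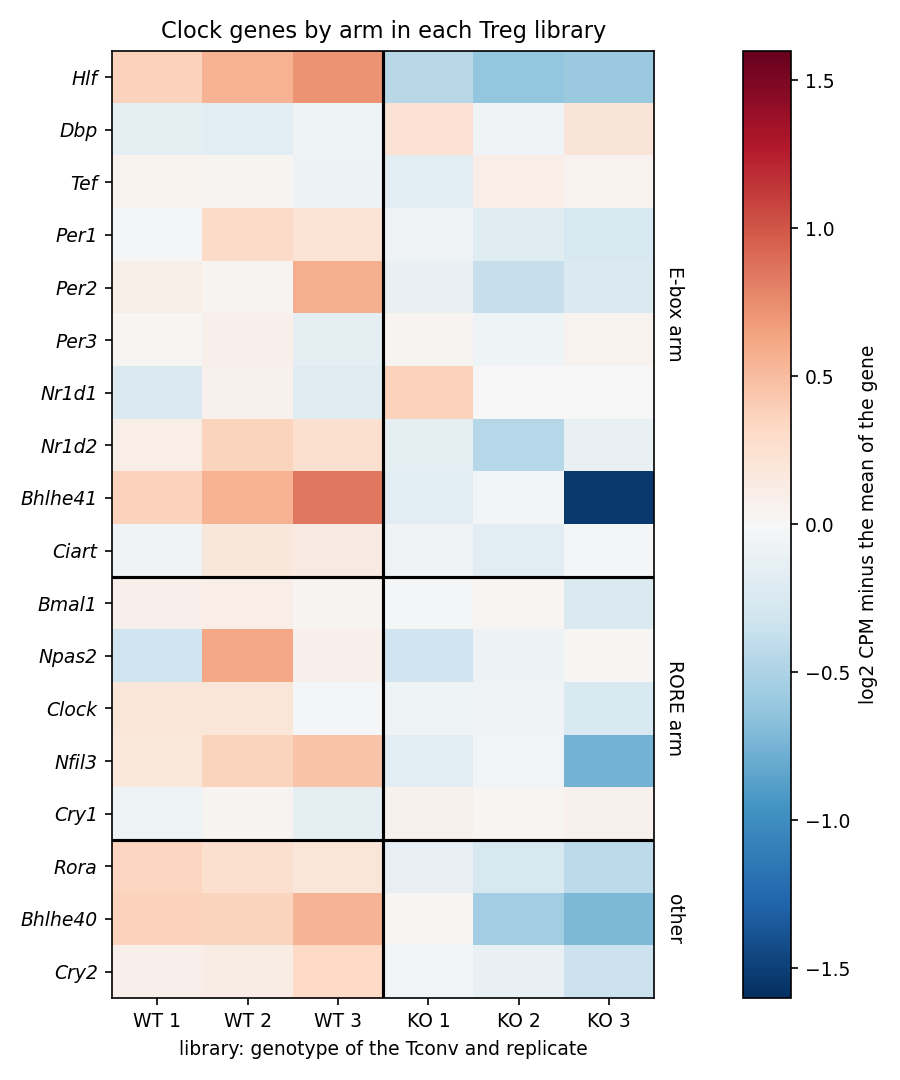
Log2 CPM of each clock gene minus its mean over the 6 libraries (colour scale), with genes as rows grouped by arm and libraries as columns, WT or KO standing for the genotype of the co-transferred Tconv. Hlf, Per1, Per2 and Nr1d2 are lower in the KO columns while Dbp, in the same E-box arm, is higher, and Bhlhe41 is lowest in replicate 3 with HP1α KO Tconv.

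The ratio to Bmal1 within each library sets the members against 1 gene of the ROR element arm, to which Nfil3 and Cry1 also belong. The log2 ratio of Dbp to Bmal1 was -3.46, -3.51 and -3.35 with WT Tconv and -2.97, -3.33 and -2.80 with HP1α KO Tconv, higher by 0.41 with no overlap. That of Hlf to Bmal1 was -4.31, -4.15 and -3.92 against -5.01, -5.26 and -4.96, a difference of -0.95 that follows from the choice of Hlf. Cry1 to Bmal1 was higher by 0.27 and Nfil3 to Bmal1 differed by -0.50, both without overlap. Bmal1 itself lay lower with HP1α KO Tconv (log2 fold change -0.15, no overlap), which raises every ratio to it, and Cry1 in CPM overlapped. The share of all genes whose ratio to Bmal1 did not overlap was not counted. The ratios of Tef, Per1, Per2, Per3, Nr1d1 and Nr1d2 to Bmal1 overlapped between groups, with differences of 0.14, -0.18, -0.33, 0.18, 0.39 and -0.33. Adding 5 counts to each gene left the direction of every one of these differences as it was.

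Levels can be compared between genes per length of the transcript. As CPM per kilobase of the longest transcript, Nfil3 at 70.0 ± 7.09 (SD, n = 3) and Per1 at 59.0 ± 6.60 led the members with WT Tconv, and their libraries overlapped. Nr1d2 followed at 15.6, then Tef at 8.52 and Cry1 at 8.38, which overlapped, then Dbp at 3.89, Nr1d1 at 1.28 and Per2 at 1.27, which overlapped, and Per3 at 1.01. Hlf was last, at 0.790 ± 0.0964 with WT Tconv and 0.366 ± 0.0253 with HP1α KO Tconv. In the same unit Bhlhe40 was highest of all clock genes listed, at 315, with Rora at 34.6 and Bmal1 at 17.1 with WT Tconv. The order of close neighbours depends on the length used: with all exons together, Per1 came before Nfil3 (51.5 and 39.8), Cry1 before Tef (6.38 and 5.19), and Hlf before Per3 (0.664 and 0.582).

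The spread between libraries of 1 group was not alike among members. Its SD on the log2 CPM scale was 0.289 for Nfil3 and 0.287 for Bhlhe40, at the 96.6th and 96.4th percentile of genes of similar mean level, in 10 bins. For Hlf it was 0.143 (percentile 30.3), for Dbp 0.119 (percentile 18.8), for Cry1 0.0707 (percentile 18.1) and for Per3 0.0965 (percentile 9.8). Nr1d2 was at percentile 82.7 and Per1 at 75.9, and Per2, Tef and Nr1d1 lay between percentile 51.1 and 64.3.

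Genes whose pattern over the 6 libraries was most like that of Hlf were taken as those with the smallest root mean square difference of centred log2 CPM, among 13262 genes with a mean of at least 1 CPM. They were Gm48302 (0.124), 5830444F18Rik (0.140), Gm37248 (0.171), Gm12737 (0.179) and Rnf24 (0.180). Gm48302 and Gm12737 are long noncoding RNA genes that lie within Ell2 and Tut4, and 5830444F18Rik and Gm37248 lie within Satb1, all on the strand of the gene that holds them. Rnf24 encodes a RING finger protein. This list shares the contrast by which Hlf was chosen, so a gene that is lower in the same 3 libraries had to rank high. On the same measure Nfil3, Per2, Nr1d2 and Per1 ranked at percentiles 1.06, 1.43, 1.54 and 4.26 of distance to Hlf. Tef, Per3, Cry1, Nr1d1 and Dbp ranked at percentiles 48.3, 50.2, 65.8, 83.3 and 84. Dbp and Nr1d1 were the members farthest from Hlf and nearly level (0.689 and 0.686). This order too shares the contrast by which Hlf was chosen.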

How the data were processed

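Total RNA of sorted spleen Treg was sequenced from stranded libraries. The authors trimmed reads with Trim Galore and Cutadapt, aligned them with STAR to GRCm39 with an Ensembl annotation and quantified genes with Salmon in the nf-core pipeline. For each gene the deposited table gives an estimated count, a whole number that is not normalized. The estimate divides reads that fit several genes, so overlapping genes can gain or lose reads.

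Differences were tested in R 4.3.3 by the edgeR 4.0.16 quasi-likelihood F-test (robust, group as sole term), with TMM factors, filterByExpr and Benjamini-Hochberg adjustment over the 18321 genes kept. The standard error was the size of the log2 fold change divided by the root of F, intervals are at 95%, and positive values are higher with HP1α KO Tconv. Alternatives were DESeq2 1.42.0, limma-voom (limma 3.58.1), 3 other scalings, 2 other filters, a replicate block and leaving out each library. DESeq2 without each library and the ratios between relatives were chosen after seeing the data. The members and lists were chosen with earlier results of these data known. Named were the 10 members, the 18 other clock genes, of which 2 are not reported here, and the 5 genes most like Hlf in pattern, by the smallest root mean square difference of centred log2 CPM among genes of at least 1 CPM. Positions came from GENCODE for GRCm39, which matched 28854 of 29199 identifiers, and promoters from RefSeq for GRCm38.p6. A planned comparison of proteins was not made. No library repeated another of its group, as the chi-square over its degrees of freedom was at least 21.6 for every pair. By this measure WT replicate 3 lay apart from its group (111 and 119). KO replicate 2 did so too (142 and 177, against 29.6 between KO replicates 1 and 3).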

Additional observations from a re-analysis of the deposited data

How the results depend on the processing

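Under 14 alternative settings, the log2 fold change of Per3 changed sign without WT replicate 3, and that of Tef, at 0.00, took either sign (0.02 with upper quartile scaling, 0.03 with total counts, and -0.06 to 0.09 leaving out 1 library). Of the members other than Hlf, 3 crossed an adjusted p of 0.05, all by DESeq2. By DESeq2, 3 members and 4 other clock genes had an adjusted p under 0.05, against 0 and 0 by edgeR and limma-voom. Leaving out 1 library gave 0 members by edgeR and, in fits chosen after seeing the data, 0 to 4 by DESeq2, where 181 to 1413 of all genes were called, and 0 to 4 other clock genes over both tools. Without a filter on low counts, 1 other clock gene (Rora) passed, beside 38 of all 29199 genes. At an unadjusted p under 0.05, leaving out 1 library gave 3 to 5 members and 4 to 7 other clock genes by edgeR (5 to 8 by DESeq2), beside 10.4% to 16.4% of all genes (7.92% to 12.4% by DESeq2), the fewest other clock genes without WT replicate 2 and the fewest members without WT replicate 3. With upper quartile scaling and with total counts, 5 and 5 other clock genes did not overlap between groups, against 8. Of the members other than Hlf, 6 and 6 did not overlap, against 5. The share of all genes without overlap was not counted under these scalings. The cause of these shifts was not tested. Without KO replicate 2 the edgeR log2 fold changes were -1.07 for Hlf, 0.35 for Dbp, -0.77 for Nfil3, -0.33 for Per1, -0.44 for Per2 and -0.38 for Nr1d2. Leaving out 1 library, the log2 fold change of Per3 ran from -0.04 to 0.09, of Timeless from -0.05 to 0.14 (by DESeq2 -0.07 and -0.03 without WT replicate 2 and KO replicate 1), of Csnk1d from -0.01 to 0.02 (by DESeq2 -0.02 to 0.01), of Fbxl21 from -0.04 to 0.94 and of Btrc from -0.28 to 0.02, and that of Csnk1d was 0.01 with upper quartile scaling and 0.03 with total counts. The median log2 fold change of all genes stayed between -0.037 and 0.029 over the 14 settings and between -0.061 and 0.01 in the DESeq2 fits without 1 library, so no scaling shifted it by over 0.1. Same-numbered libraries of the 2 groups correlated at -0.06, 0.24 and 0.14 in their deviations from the group means. Not every library correlated best with its own number. With 3 libraries per group, these correlations cannot tell whether the numbers pair them. With the replicate block, 0 members and 0 other clock genes had an adjusted p under 0.05, and 1 gene of all those tested was called. At an unadjusted p under 0.05 there were 4 members and 6 other clock genes, beside 11.4% of all genes. Without the block these were 4, 7 and 14.5%.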

Other observations

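Per1, Nfil3 and Hlf can also respond to hormone and stress signals in other cells, so genes of those responses are given here as values. Of 8 glucocorticoid responsive genes, 3 were higher and 5 lower with HP1α KO Tconv, with a median log2 fold change of -0.16. Sgk1, a kinase gene, was at 142, 131 and 146 CPM with WT Tconv and at 114, 121 and 81.1 CPM with HP1α KO Tconv, with an unadjusted p of 0.0292 and an adjusted p of 0.291 by edgeR. For Dusp1, a phosphatase gene, the log2 fold change was -0.22 and the adjusted p 0.291 by edgeR. Tsc22d3, which encodes GILZ, and Fkbp5 each had a log2 fold change of 0.19, with adjusted p of 0.360 and 0.384 by edgeR. The part of these signals in the levels of Per1, Nfil3 and Hlf was not tested.

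Of 10 immediate early genes, 5 were higher and 5 lower, with a median log2 fold change of -0.02. Fos was at 385, 394 and 402 CPM with WT Tconv and at 418, 476 and 560 CPM with HP1α KO Tconv, with an unadjusted p of 0.0207 and an adjusted p of 0.263 by edgeR. Egr1 was at 68.7, 72.3 and 57.6 CPM against 51.3, 53.6 and 54.1 CPM, with an unadjusted p of 0.00769 and an adjusted p of 0.221 by edgeR. The heat shock genes Hspa1a and Hspa1b were highest in WT replicate 3, at 30.6 and 50.4 CPM against 1.24 to 5.86 and 2.09 to 10.2 CPM in the other libraries. That library is also the one with the highest erythroid, neutrophil and macrophage markers and with the highest Hlf, Nfil3 and Per2 of its group.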
